A study of Saccharomyces cerevisiae with 9 samples.

Results

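The genes described here carry glucose to pyruvate, ethanol, acetate and glycerol in budding yeast. The list held 38 genes, chosen by name from the enzymes of these routes and 3 of their transcription factors. Of these, 36 had a probe set on the array and 34 passed the filter on low signal, out of 5449 genes with a probe set and 4087 tested. TDH2 and ERR1 are not analysed here, and GPM2 and ALD3 lay under the filter. Baker's yeast in glucose medium breaks down most of its sugar by glycolysis and ferments the pyruvate to ethanol even in air, while a side branch makes glycerol, which balances the redox state of the cell and protects it against osmotic stress. Many steps have several gene copies. One copy, called the main isoform here, carries the flux on glucose, and the others are known as minor copies that are repressed by glucose or used under stress or on other carbon sources.

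The study asked how lysine 42 of histone H3, named in its title as a methylated site that restrains transcription, affects gene expression. All cultures were of strain JPY12 with H3 carried on a plasmid. In the 3 wild-type cultures this H3 kept lysine 42. In the K42A, K42L and K42Q strains, with 2 cultures each, the residue was alanine, leucine and glutamine in turn. Cultures grew in YPD, a rich glucose medium, to an A600 of about 0.7, and each was measured on 1 Affymetrix array that reports a linear signal intensity per probe set. A probe set cannot read the substitution, so the arrays do not check the labels. HIS3 stood apart on 1 array, with a signal of 326 in K42Q replicate 2 against 1852 to 3171 on the other 8.

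Every array had a trimmed mean signal of 150.1. All 36 members with a probe set lay above the 95th percentile of the background on all 9 arrays. Probe sets of another yeast species, which measure background, split the arrays into a first batch with a median background of 1.0 to 1.3 (wild-type replicate 1, K42L and K42Q) and a second with 2.2 to 2.7 (wild-type replicates 2 and 3, and K42A). The labels name no batch. A change given as within the batch therefore rests on wild-type replicates 2 and 3 for K42A, and on wild-type replicate 1 alone for K42L and K42Q. All 3 mutants were set against the same 3 wild-type arrays, so their changes share that reference. Changes are differences of mean log2 signal ± SE from 1 limma fit over all genes, and "called" means an adjusted p (Benjamini-Hochberg, over all genes) under 0.05. In a culture, fewer cells that express a gene and less RNA per cell cannot be told apart.

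TDH1, ALD2, PFK26, PDC5 and ADH2 were higher than wild-type in both K42A and K42Q. Of 12 main isoforms 2 were called lower in K42A and 1 higher in K42Q. These main-isoform counts depended on the setting. Within the batch 9 of the 12 were lower in K42A, and with the batch as a block 0 were higher and 2 lower in K42Q. In K42A 5 of the 34 members tested rose and 6 fell, which is 14.7 and 17.6 percent of them, beside 22.6 and 19.7 percent of all genes tested (42.4 percent in either direction). In K42Q 9 rose and 2 fell, or 26.5 and 5.88 percent, beside 21.4 and 18.2 percent of all genes (39.6 in either direction). In K42L 0 rose and 2 fell, or 5.88 percent, beside 0.318 percent higher and 0.343 percent lower among all genes (0.661 in either direction). In this fit the share of members called thus lay under that of all genes in K42A in both directions. In K42Q it lay somewhat over it for increases and under it for decreases. The order for decreases in K42A depended on the setting. Within the batch 14 of the 34 members were lower there, beside 1179 of 4087 genes. Without wild-type replicate 2 it was 10 members, beside 741 genes. In both the share of members lower lay over that of all genes. The share in K42L rests on 2 genes, and at an unadjusted p under 0.05 limma gave 0 higher and 6 lower there. Leaving out an array moved the calls of all genes as well as those of members. Without wild-type replicate 1, 689 of 4087 genes were higher and 675 lower in K42L, and 1185 and 1137 in K42Q. The 11 calls in K42A became 4 without K42A replicate 2, and the 2 in K42L became 13 without wild-type replicate 1 and 0 without any other of its 5 arrays. The 11 in K42Q became 17 without wild-type replicate 1, 7 without K42Q replicate 1, and 8 without K42Q replicate 2.

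Of the 34 members tested 13 were listed as minor, stress-induced or glucose-repressed isoforms, ALD4 among them, 12 as main isoforms, and 9 as neither. Of the minor isoforms 5 rose and 2 fell in K42A, 0 rose and 2 fell in K42L, and 7 rose and 1 fell in K42Q. Their median change was 0.16 log2 in K42A, -0.07 in K42L and 0.46 in K42Q. Of the main isoforms 0 rose and 2 fell in K42A, none was called in K42L, and 1 rose in K42Q, with median changes of -0.29, 0.08 and 0.02. Of the 9 others ADH3 and GPP1 fell in K42A, and GCR2 rose and GPD2 fell in K42Q. Within the batch the calls in K42A were 7 minor isoforms, 9 main isoforms and 4 others. Over all 4087 genes 1067 were higher and 1179 lower there. With the batch as a block the calls in K42Q were 11 minor isoforms, 2 main isoforms and 4 others. In that fit 923 of all genes were higher and 843 lower. Over all genes tested the medians were -0.01, 0.01 and 0.00. These lists were written with earlier results of the same arrays known, so their direction is a description. In the heatmap of the members by array, TDH1, ALD2 and PFK26 stand out on the K42A and K42Q arrays, and ADH2, PDC6 and ALD4 on the K42L arrays.

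**Figure D1:**
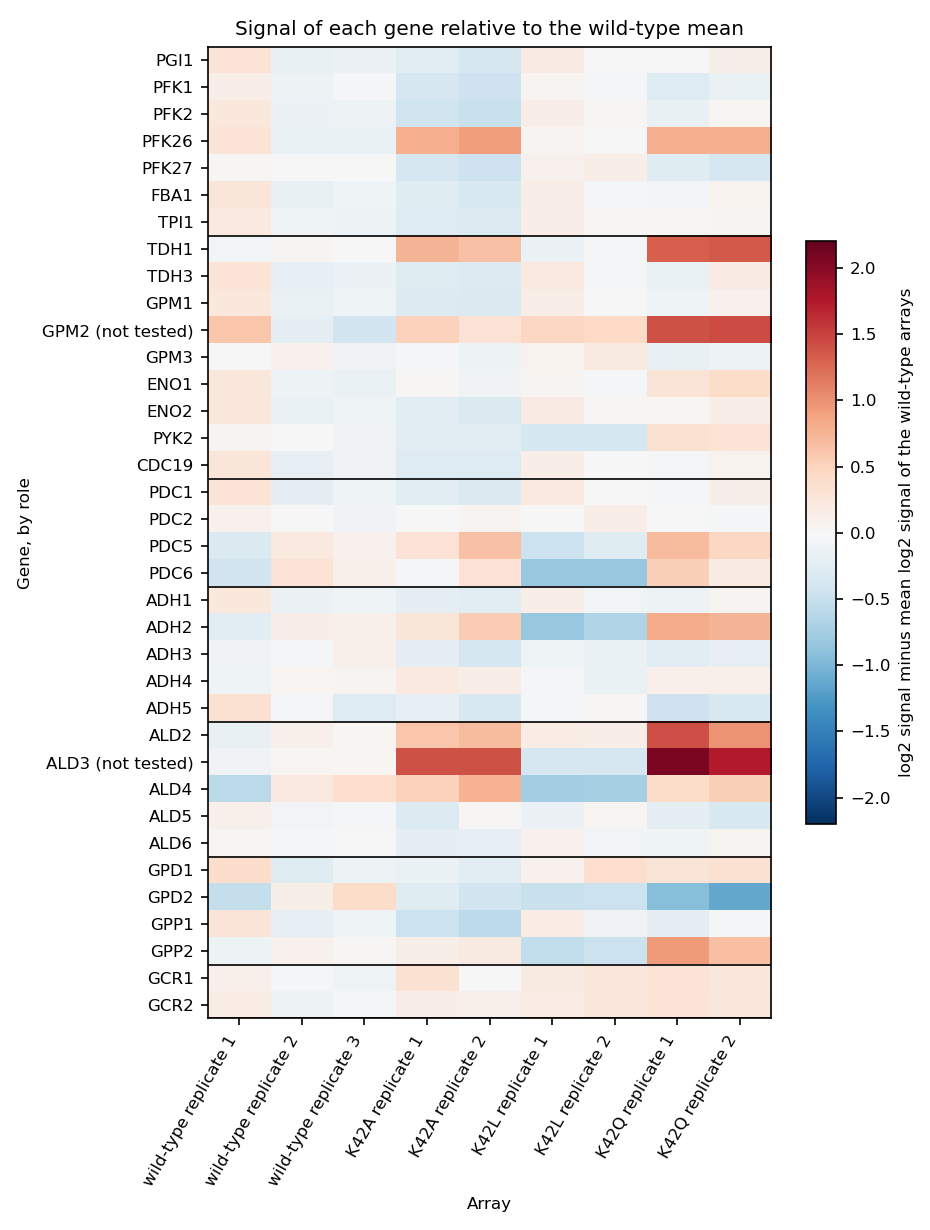
Heatmap of the members (rows, ordered by step of the pathway) on the 9 arrays (columns), coloured by log2 signal minus the mean of the 3 wild-type arrays. TDH1, ALD2, ALD3 and GPP2 are highest on the 2 K42Q arrays, and ADH2 and PDC6 are lowest on the 2 K42L arrays. GPM2 and ALD3 were not tested.

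In upper glycolysis, which takes glucose phosphate to the triose phosphates, 1 of 7 members tested rose and 3 fell in K42A, none was called in K42L, and 1 rose and 1 fell in K42Q. Called in either direction were thus 57.1, 0 and 28.6 percent, beside 42.4, 0.661 and 39.6 percent of all genes. This step and those below hold 4 to 8 genes tested each, so such shares rest on single genes. PFK26 and PFK27 encode the kinases that make the sugar bisphosphate that activates phosphofructokinase. PFK26 had a signal of 155, 114 and 114 on the wild-type arrays, 221 and 238 in K42A, 132 and 125 in K42L, and 219 and 219.9 in K42Q. The 4 arrays of K42A and K42Q lay above all wild-type arrays, and both K42L arrays lay among them. PFK26 rose by 0.86 ± 0.13 log2 in K42A (adjusted p = 0.000931), 1.81-fold, and by 0.80 ± 0.13 in K42Q (adjusted p = 0.00146). Within the batch these changes were 1.01 and 0.50, both called.

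The related kinase gene moved the other way. PFK27 had a signal of 295, 289 and 289.7 on the wild-type arrays, 225.5 and 212 in K42A, 310.5 and 322 in K42L, and 242 and 226 in K42Q. K42A and K42Q lay below all wild-type arrays and K42L slightly above them. PFK27 fell by 0.41 ± 0.07 log2 in K42A (adjusted p = 0.00146) and by 0.32 ± 0.07 in K42Q (adjusted p = 0.00553), with -0.40 and -0.33 within the batch. Both decreases lost the call when arrays were scaled to the spike-in controls within the batch, where the values were -0.23 and -0.14.

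PFK1 and PFK2, the subunits of phosphofructokinase itself, were lower in K42A. PFK1 had a signal of 2139, 1796 and 1877 on the wild-type arrays, 1493 and 1412 in K42A, 2011 and 1871 in K42L, and 1581 and 1739 in K42Q, and PFK2 one of 2251, 1762 and 1773 on the wild-type arrays, 1422 and 1367 in K42A, 2130.4 and 1939 in K42L, and 1717 and 1966.5 in K42Q. K42A lay below every wild-type array for both subunits, while K42L lay among the wild-type arrays. For K42Q both PFK1 arrays lay under the lowest wild-type array, and the PFK2 arrays overlapped with wild-type. PFK1 fell by 0.41 ± 0.09 log2 in K42A (adjusted p = 0.00767) and PFK2 by 0.46 ± 0.12 (adjusted p = 0.0138), with -0.34 and -0.34 within the batch. Both calls were lost under spike-in scaling and without K42A replicate 2, and that of PFK2 also without K42A replicate 1. In K42Q the differences were -0.22 ± 0.09 and -0.06 ± 0.12, and neither passed. Within the batch they were -0.37, which was called, and -0.29, which passed when the batch entered as a block but not within it.

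The other steps of upper glycolysis had no call against wild-type. PGI1, the phosphoglucose isomerase, FBA1, the aldolase, and TPI1, the triose phosphate isomerase, differed by -0.31 ± 0.14, -0.31 ± 0.13 and -0.29 ± 0.11 log2 in K42A, with adjusted p values of 0.0966, 0.0812 and 0.0518. In K42A all their arrays lay below the wild-type arrays. Within the batch all 3 differences were called, at -0.16, -0.17 and -0.19. In K42L and K42Q their differences lay between 0.01 and 0.09. Within the batch these took the other sign, at -0.21, -0.20 and -0.12 in K42L and -0.24, -0.26 and -0.16 in K42Q, none called.

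In lower glycolysis, from triose phosphate to pyruvate, 1 of 8 members tested rose and 1 fell in K42A, none was called in K42L, and 3 rose in K42Q. That is 25, 0 and 37.5 percent, beside 42.4, 0.661 and 39.6 percent of all genes called in either direction. TDH1 had the largest change of the 34 members tested in K42Q. It encodes the copy of glyceraldehyde phosphate dehydrogenase known for expression in stationary phase and under stress. Its signal was 798, 868 and 825.5 on the wild-type arrays, 1401 and 1304 in K42A, 759.8 and 819 in K42L, and 2074.5 and 2109.6 in K42Q. K42A and K42Q lay above all wild-type arrays without overlap, K42Q lay above K42A, and 1 of the 2 K42L arrays lay below the wild-type range. TDH1 rose by 0.70 ± 0.07 log2 in K42A (adjusted p = 0.000107), 1.63-fold, and by 1.33 ± 0.07 in K42Q (adjusted p = 2e-06), 2.52-fold. The difference in K42L was -0.07 ± 0.07 (adjusted p = 0.618).

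The array also carried separate control probe sets along TDH1. That for the 5′ part differed from wild-type by 0.62, -0.25 and 1.26 log2 in K42A, K42L and K42Q, that for the middle by 0.88, -0.17 and 1.51, and that for the 3′ part by 0.46, -0.14 and 0.89. All 3 thus had the order K42Q, K42A, K42L from high to low. A control probe set for the middle of TDH1 that is marked as shared with other sequences differed by -0.24, 0.07 and 0.06.

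TDH3, the main copy of the enzyme, had a signal of 2578, 1865 and 1934 on the wild-type arrays, 1739.6 and 1701 in K42A, 2427 and 2057 in K42L, and 1903 and 2372 in K42Q. Wild-type replicate 1 was the highest array, and the K42L and K42Q arrays lay within the wild-type range. The difference of -0.29 ± 0.15 log2 in K42A did not pass (adjusted p = 0.148), but was called within the batch, at -0.14. The 95% interval in K42Q was -0.33 to 0.36, and the difference within the batch was -0.28, not called. The copies of this enzyme are near-identical, so part of a signal may come from another copy, TDH2 included, and this was not tested.

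GPM1, the phosphoglycerate mutase, and GPM3, a relative of it with no established role in glycolysis, had no call over all arrays. GPM1 differed by -0.30 ± 0.12 log2 in K42A, 0.07 ± 0.12 in K42L and -0.002 ± 0.12 in K42Q, with -0.19, -0.17 and -0.24 within the batch, where that of K42A was called. GPM3 differed by -0.07 ± 0.08, 0.14 ± 0.08 and -0.13 ± 0.08. GPM2, another relative, lay under the filter, with signals of 65.5, 37.1 and 32.0 on the wild-type arrays, 60.8 and 52.9 in K42A, 58.6 and 57.6 in K42L, and 113 and 116 in K42Q. Both K42Q arrays exceeded all wild-type arrays, at a mean 1.42 log2 higher, while K42A and K42L overlapped with wild-type. GPM2 lies next to GPD1 on its chromosome in the RefSeq annotation.

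Enolase is made from ENO1, the more constant copy, and ENO2, the copy induced by glucose. ENO1 had a signal of 2055, 1599 and 1559 on the wild-type arrays, 1763.5 and 1638 in K42A, 1793 and 1696 in K42L, and 2107 and 2276.5 in K42Q. The K42Q arrays lay above all wild-type arrays, closest to wild-type replicate 1, and K42A and K42L lay within the wild-type range. ENO1 rose by 0.35 ± 0.12 log2 in K42Q (adjusted p = 0.0448), a call that was lost within the batch, where the difference was 0.09. ENO2 differed by -0.29 ± 0.12 in K42A, 0.11 ± 0.12 in K42L and 0.09 ± 0.12 in K42Q, none of them called. The within-batch values were -0.17, which was called, -0.13 and -0.15. ERR3, an enolase-related gene outside the list, was read by a probe set shared with related sequences, and its signals were 41.6, 46.9 and 43.7 on the wild-type arrays, 94.5 and 102.5 in K42A, 43.6 and 43.4 in K42L, and 125 and 109 in K42Q.

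Pyruvate kinase is encoded by CDC19, the main copy, and PYK2, a copy repressed by glucose. PYK2 had a signal of 223.5, 214 and 203 on the wild-type arrays, 182 and 182 in K42A, 164 and 163 in K42L, and 271 and 262 in K42Q. K42A and K42L lay below all wild-type arrays and K42Q above all of them. PYK2 rose by 0.32 ± 0.07 log2 in K42Q (adjusted p = 0.00708) and fell by 0.23 ± 0.07 in K42A (adjusted p = 0.0295). The change in K42A was -0.20 within the batch and not called there. In K42L the difference was -0.39 ± 0.07, with an adjusted p of 0.0554, and it was called within the batch, at -0.45. CDC19 differed by -0.28 ± 0.13 in K42A, 0.07 ± 0.13 in K42L and 0.02 ± 0.13 in K42Q, none of them called, and by -0.15, -0.20 and -0.24 within the batch, where that of K42A was called.

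**Figure D2:**
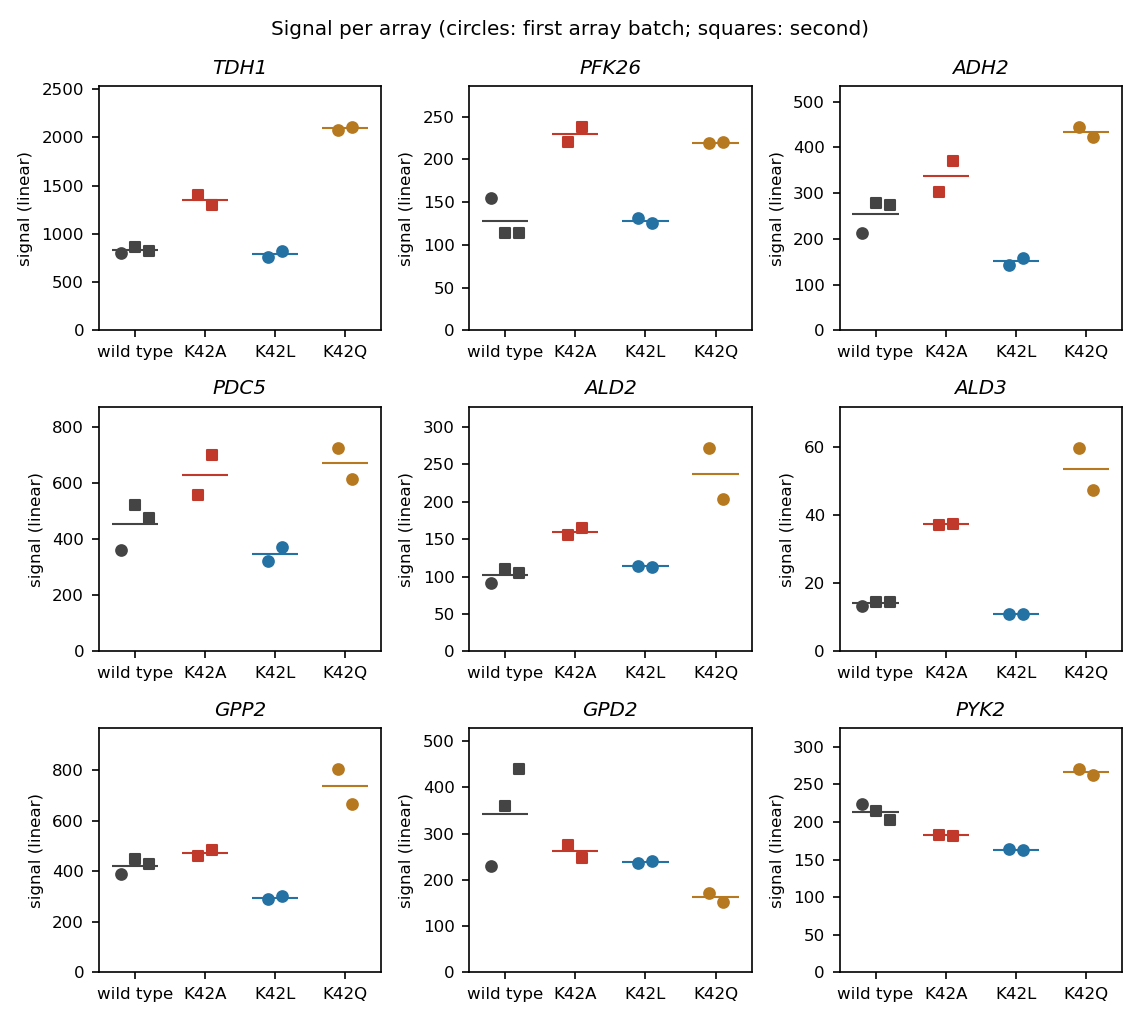
Array signal (linear axis from 0) of 9 members on the 9 arrays, 1 panel per gene and 1 point per array, with arrays grouped by strain, lines at group means, circles for the first batch and squares for the second. TDH1 and ALD2 lie above all wild-type arrays in K42A and higher still in K42Q, whereas ADH2 and GPP2 lie below wild-type in K42L.

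At the branch to ethanol, pyruvate decarboxylase makes acetaldehyde. PDC1 is the main copy, PDC5 and PDC6 are minor copies, and PDC2 encodes a transcription factor that PDC1 and PDC5 need. Of these 4 genes 1 rose in K42A, none was called in K42L, and 1 rose in K42Q. The shares of 25, 0 and 25 percent stand beside 42.4, 0.661 and 39.6 percent of all genes called in either direction. PDC5 had a signal of 360.3, 521 and 475 on the wild-type arrays, 558 and 698 in K42A, 321 and 372 in K42L, and 725 and 614 in K42Q. K42A and K42Q lay above all wild-type arrays, and 1 K42L array lay below them. PDC5 rose by 0.48 ± 0.16 log2 in K42A (adjusted p = 0.037) and by 0.58 ± 0.16 in K42Q (adjusted p = 0.0185), with 0.33 and 0.89 within the batch. The call in K42A was lost without K42A replicate 2, and that in K42Q without K42Q replicate 1.

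PDC6 had a signal of 101.5, 169 and 147 on the wild-type arrays, 134 and 169 in K42A, 76.7 and 76.5 in K42L, and 197 and 154 in K42Q. Both K42L arrays lay below all wild-type arrays, while K42A and K42Q overlapped with wild-type. Its differences of -0.83 ± 0.20 log2 in K42L (adjusted p = 0.102) and 0.35 ± 0.20 in K42Q (adjusted p = 0.196) did not pass. Within the batch the value in K42Q was 0.78 and was called, with wild-type replicate 1 the lowest of the wild-type arrays. PDC1 differed by -0.28 ± 0.14, 0.10 ± 0.14 and 0.06 ± 0.14 in K42A, K42L and K42Q, with -0.13, -0.19 and -0.24 within the batch. PDC2 differed by 0.02 ± 0.09, 0.07 ± 0.09 and -0.03 ± 0.09. Neither was called, over all arrays or within the batch.

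Alcohol dehydrogenase turns acetaldehyde to ethanol or back. Of 5 genes tested 1 rose and 1 fell in K42A, 1 fell in K42L and 1 rose in K42Q. These are 40, 20 and 20 percent, beside 42.4, 0.661 and 39.6 percent of all genes called in either direction. ADH2, the copy repressed by glucose that oxidises ethanol, was called in all 3 mutants, though only the call in K42Q held in every alternative. Its signal was 212, 278.5 and 273 on the wild-type arrays, 303 and 371 in K42A, 142.5 and 159 in K42L, and 445 and 423 in K42Q. K42A and K42Q lay above all wild-type arrays and K42L below all of them. ADH2 rose by 0.78 ± 0.13 log2 in K42Q (adjusted p = 0.00173), 1.72-fold, and by 0.41 ± 0.13 in K42A (adjusted p = 0.0329). It fell by 0.75 ± 0.13 in K42L (adjusted p = 0.0451). The values within the batch were 1.03, 0.28 and -0.50, all called. The K42L call was lost in 6 of 15 alternatives, among them the batch as a block and spike-in scaling. It was also lost without wild-type replicate 2 or 3 and without either K42L replicate. The K42A call was lost with the compared groups alone and without K42A replicate 2.

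ADH1 makes the ethanol of fermentation. Its differences were -0.22 ± 0.12 log2 in K42A, 0.05 ± 0.12 in K42L and -0.02 ± 0.12 in K42Q, and -0.10, -0.18 and -0.25 within the batch, none called. ADH3, the mitochondrial enzyme, had a signal of 1318, 1366 and 1504 on the wild-type arrays, 1199 and 1071 in K42A, 1299 and 1259 in K42L, and 1179 and 1227 in K42Q. All 6 mutant arrays lay below the lowest wild-type array, though only K42A was called. There ADH3 fell by 0.30 ± 0.08 log2 (adjusted p = 0.0173), a call that quantile, cyclic loess and spike-in scaling each ended. ADH4 and ADH5, other alcohol dehydrogenase genes, had no call over all arrays. ADH4 in K42Q differed by 0.11 ± 0.07, and by 0.20 within the batch, where it was called. For ADH5 in K42Q, with 173 and 187 against 297, 228 and 195 in wild-type, the difference was -0.40 ± 0.15 (adjusted p = 0.0614), and -0.72 within the batch, where it was called.

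Aldehyde dehydrogenases oxidise acetaldehyde to acetate. Of 4 genes tested 1 rose in K42A, none was called in K42L and 1 rose in K42Q. The shares were 25, 0 and 25 percent, beside 42.4, 0.661 and 39.6 percent of all genes called in either direction. ALD2, a cytosolic and stress-induced copy, had a signal of 90.8, 110.5 and 105 on the wild-type arrays, 155 and 164.5 in K42A, 113.5 and 113 in K42L, and 272 and 203 in K42Q. K42A and K42Q lay far above the wild-type arrays and K42L just above them. ALD2 rose by 0.65 ± 0.13 log2 in K42A (adjusted p = 0.00401), 1.57-fold, and by 1.21 ± 0.13 in K42Q (adjusted p = 0.000153), 2.31-fold. ALD3, its near-identical neighbour on the chromosome, lay under the filter, with signals of 13.4, 14.6 and 14.5 on the wild-type arrays, 37.2 and 37.4 in K42A, 10.9 and 10.9 in K42L, and 59.8 and 47.3 in K42Q. No mutant overlapped with wild-type, and the level was 2.63-fold that of wild-type in K42A, 3.76-fold in K42Q and 0.77-fold in K42L, without a test.

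ALD4, a mitochondrial copy known to be repressed by glucose, had a signal of 365, 635 and 712 on the wild-type arrays, 782 and 928.5 in K42A, 328 and 331 in K42L, and 728 and 784 in K42Q. Wild-type replicate 1 lay far below the other wild-type arrays, K42A and K42Q lay above all 3, and K42L below all 3. The differences of 0.64 ± 0.23 log2 in K42A (adjusted p = 0.0508), -0.74 ± 0.23 in K42L (adjusted p = 0.17) and 0.46 ± 0.23 in K42Q (adjusted p = 0.14) did not pass. Within the batch they were 0.34, -0.15 and 1.05, and those of K42A and K42Q were called. ALD5, another mitochondrial copy, and ALD6, the main cytosolic one, differed by -0.14 ± 0.10 and -0.20 ± 0.08 in K42A and by -0.27 ± 0.10 and -0.02 ± 0.08 in K42Q, none called. Within the batch ALD5 in K42Q, at -0.38, and ALD6 in K42A, at -0.19, were called.

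Glycerol is made by glycerol phosphate dehydrogenase, encoded by GPD1 and GPD2, and by glycerol phosphatase, encoded by GPP1 and GPP2. GPD1 and GPP2 are known as the copies induced by osmotic stress, GPD2 and GPP1 as those used for redox balance without oxygen. Of these 4 genes 1 fell in K42A, 1 fell in K42L, and 1 rose and 1 fell in K42Q. This amounts to 25, 25 and 50 percent, beside 42.4, 0.661 and 39.6 percent of all genes called in either direction. GPP2 had a signal of 390.0, 449 and 429 on the wild-type arrays, 460.3 and 484 in K42A, 290.5 and 303 in K42L, and 807 and 668.5 in K42Q. K42Q lay above all other arrays, K42A just above wild-type, and K42L below all wild-type arrays. GPP2 rose by 0.80 ± 0.09 log2 in K42Q (adjusted p = 0.000229), 1.74-fold, with 0.91 within the batch. It fell by 0.51 ± 0.09 in K42L (adjusted p = 0.0487), with -0.40 and no call within the batch. In K42A the difference was 0.16 ± 0.09 (adjusted p = 0.181).

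GPP1 had a signal of 2397, 1751 and 1851 on the wild-type arrays, 1424 and 1332 in K42A, 2216 and 1876 in K42L, and 1705 and 1917 in K42Q. Both K42A arrays lay below all wild-type arrays, K42L lay within the wild-type range, and 1 K42Q array lay below it. GPP1 fell by 0.52 ± 0.14 log2 in K42A (adjusted p = 0.0143), with -0.39 within the batch. That call was lost under spike-in scaling and without either K42A replicate. In K42Q the difference was -0.13 ± 0.14, and -0.41 within the batch, where it was called.

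GPD2 moved against GPP2 in K42Q. Its signal was 229, 360.2 and 440.2 on the wild-type arrays, 275 and 248 in K42A, 236 and 239.9 in K42L, and 173 and 152 in K42Q. The K42Q arrays lay below all wild-type arrays, and K42A and K42L lay between wild-type replicate 1 and the other wild-type arrays. GPD2 fell by 1.03 ± 0.22 log2 in K42Q (adjusted p = 0.00509), to 0.489 of the wild-type level, and the change was -0.50 log2 within the batch. The difference of -0.34 ± 0.22 in K42A did not pass and was -0.61 within the batch, where it was called. GPD1 had no call, with differences of -0.20 ± 0.17, 0.23 ± 0.17 and 0.31 ± 0.17 in K42A, K42L and K42Q. Within the batch the values were -0.01, -0.16 and -0.08, none called, so that the sign turned in K42L and K42Q.

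GCR1 and GCR2 encode the activators of the glycolytic genes. GCR2 had a signal of 113, 93.5 and 98.9 on the wild-type arrays, 113 and 109 in K42A, 114 and 121 in K42L, and 125 and 121 in K42Q. The K42Q arrays lay above all wild-type arrays, as did K42L, and K42A lay within the wild-type range. GCR2 rose in K42Q by 0.28 ± 0.10 log2 (adjusted p = 0.0457). The difference was 0.12 and not called within the batch, and quantile, median and loess scaling also ended the call. GCR1 differed by 0.27 ± 0.11 in K42Q (adjusted p = 0.0695) and 0.17 ± 0.11 in K42A (adjusted p = 0.221). Neither activator was called in K42A or K42L.

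**Figure D3:**
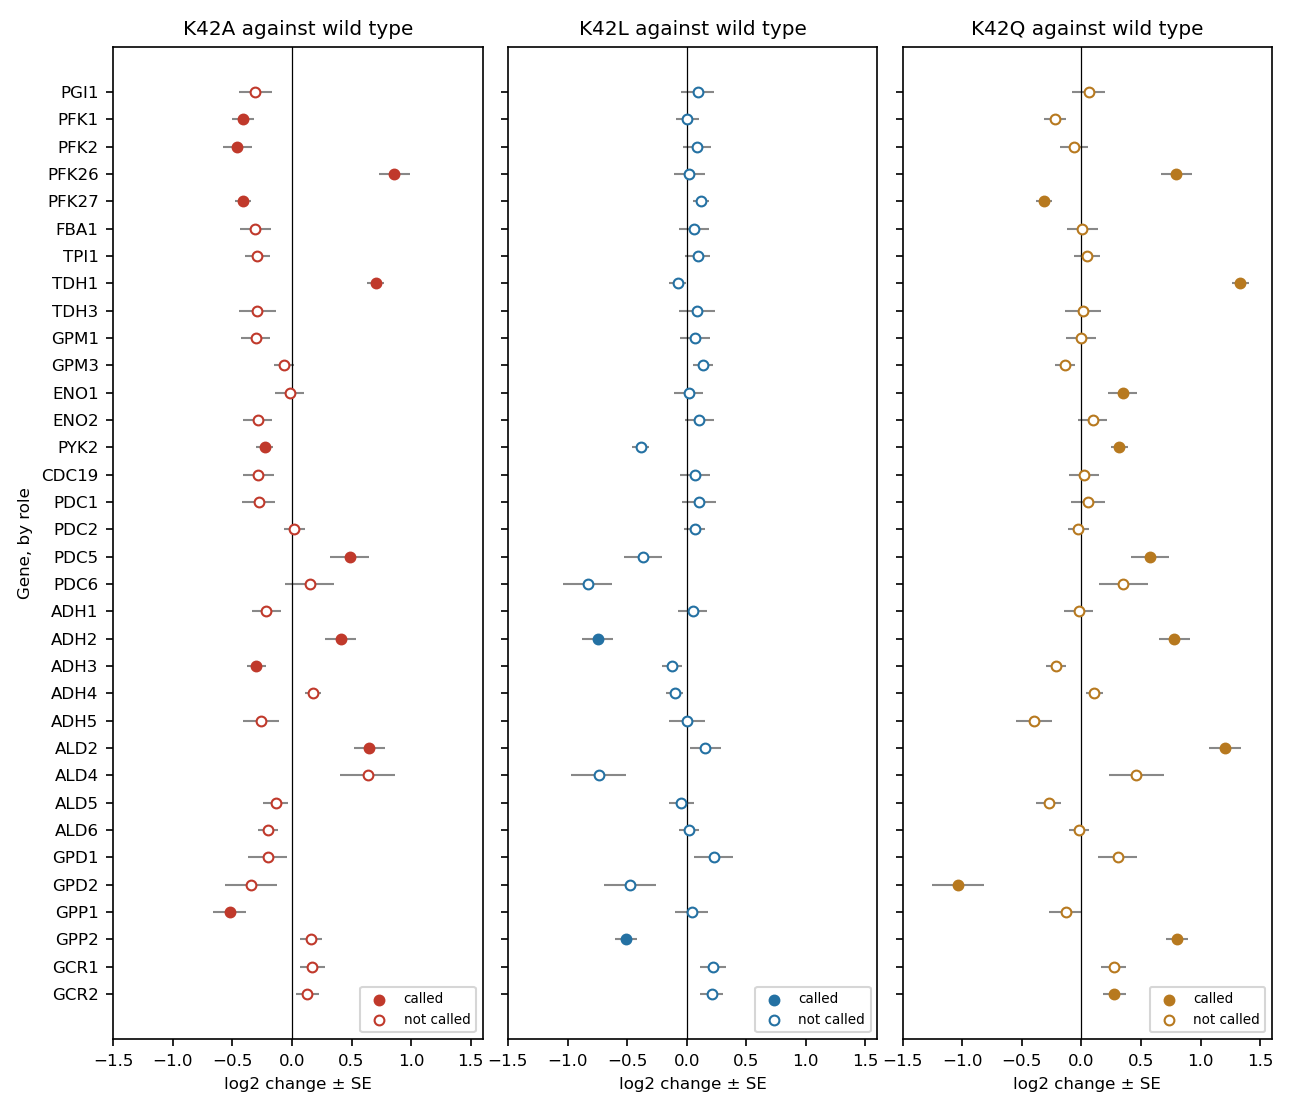
Change in log2 signal against wild-type for each of the 34 members tested in K42A, K42L and K42Q, with bars of ± 1 SE and filled points for called changes. Over all arrays most main isoforms lie near -0.29 in K42A and near 0 in K42L and K42Q, while within the batch their medians were -0.16, -0.18 and -0.24.

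The main isoforms were among the brightest probe sets of the array and are set here beside other bright genes. Their signals ran from 1367 to 2854, while the highest gene signal of an array was 2424 to 3436. Whether the array reads a change in full this close to its highest signals was not tested. In K42A their 12 changes ran from -0.46 to -0.02 log2, with the median of -0.29 given above. The 100 brightest genes outside the list also had a median of -0.29 in K42A, with 25th and 75th percentiles of -0.33 and -0.26, and 28 of them were called lower and 1 higher. The spike-in control cre, which is not a yeast RNA, differed by -0.37 log2 at its 3′ probe set and -0.32 at its 5′ probe set in K42A. In K42L cre differed by 0.26 and 0.32 and in K42Q by 0.18 and 0.26. The cre signal also differed between batches. Its 3′ probe set read 2899 on wild-type replicate 1, 2811 and 2671 in K42L, and 2595 and 2590 in K42Q. In the second batch it read 2029 and 2044 on the wild-type arrays, and 1887 and 1662 in K42A. At each probe set cre thus lay lower in every mutant than on the wild-type arrays of its batch. An ACT1 control probe set differed by -0.30 in K42A. In K42L the same bright genes had a median of 0.08 and in K42Q of -0.06, beside 0.08 and 0.02 for the main isoforms. Within the batch the medians of the main isoforms were -0.16 in K42A, -0.18 in K42L and -0.24 in K42Q, so those of K42L and K42Q turned sign and all 3 lay close.

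Quantile scaling moved the median of the main isoforms in K42A to -0.01 and cyclic loess to 0.01, with 2 lower and 1 higher under each. The higher call was ENO1, at 0.27 and 0.26. When the spike-in controls set the scale inside each batch, their median was -0.11 with 0 called, and the median of all genes stood at 0.17. None of the 6 decreases in K42A remained a call under that scaling. In it 9 of 34 members were higher and 0 lower, beside 1302 of 4087 genes higher and 133 lower. Within the batch 9 of the 12 main isoforms were lower and 0 higher in K42A, 0 were called in K42L, and 1 was lower in K42Q. Wild-type replicate 1 was brighter than the other wild-type arrays for 12 of 12 main isoforms, against 1767 of 4087 genes. The signal of the 25S rRNA control also moved with K42A, at 252 and 558 against 89.7, 48.3 and 59.6 in wild-type, and the part of any of these in the decreases was not tested.

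**Figure D4:**
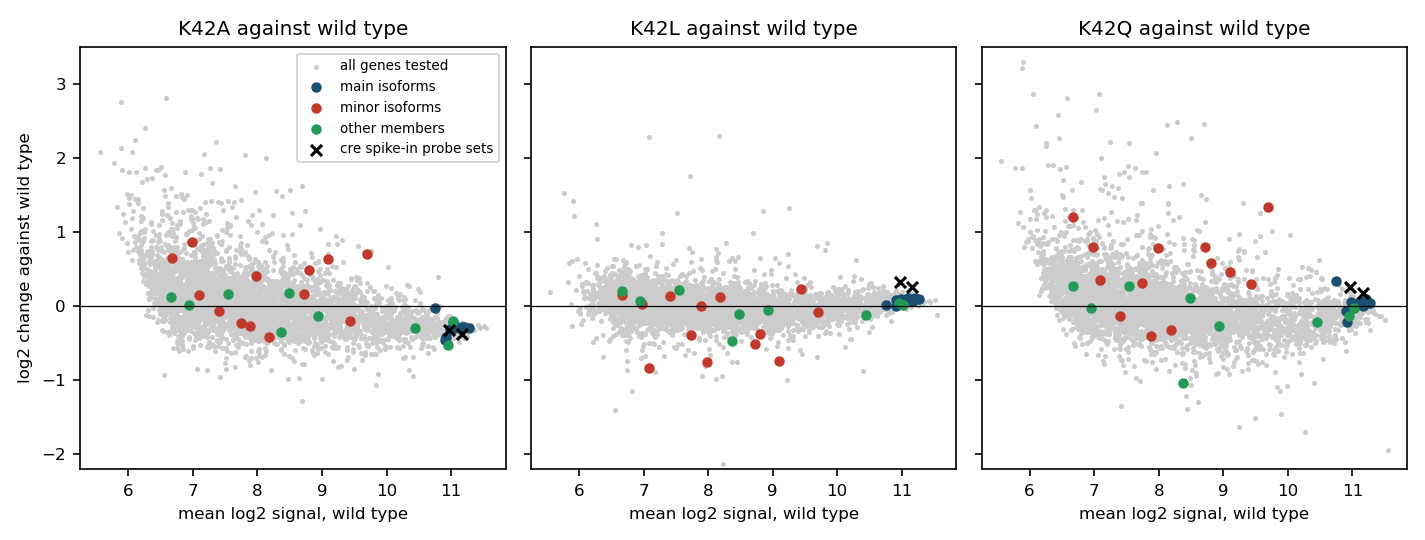
Change in log2 signal against wild-type (vertical axis) by mean log2 signal in wild-type (horizontal axis) for all 4087 genes tested in grey, the members in colour and the cre spike-in probe sets as crosses, in 1 panel per mutant. In K42A the brightest genes, the main isoforms and the spike-in lie together below 0, while minor isoforms lie on both sides of it.

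Differences between paired isoforms on the same array take out a shift shared by bright and dim probe sets only in part, since a minor copy is usually dimmer. They are given as a description. The log2 difference of TDH1 from TDH3 was 0.99 higher than in wild-type in K42A and 1.32 higher in K42Q, with no overlap, and -0.16 from it in K42L, with overlap. ADH2 against ADH1 was 0.62 and 0.80 higher in K42A and K42Q and -0.80 from wild-type in K42L, and GPP2 against GPP1 was 0.69 and 0.93 higher and -0.55. None of these overlapped with wild-type in any mutant. In K42L the nearest wild-type array for both pairs was replicate 1, of the same batch. For GPP2 against GPP1 it stood at -2.62, beside -2.93 and -2.63 in K42L. For ADH2 against ADH1 it stood at -3.52, beside -4.02 and -3.66.

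ENO1 against ENO2 was 0.27 higher in K42A and 0.25 higher in K42Q, without overlap, although ENO1 itself was not called in K42A. PYK2 against CDC19 overlapped with wild-type in K42A, and was -0.45 from it in K42L and 0.30 higher in K42Q. For GPD2 against GPD1 the shift was -1.34 in K42Q, while K42A and K42L overlapped with wild-type. The wild-type arrays of this pair differed by batch, at -1.98 on replicate 1 and -0.67 and -0.54 on replicates 2 and 3. K42Q, at -2.28 and -2.52, lay much closer to replicate 1, of its own batch. K42A, at -1.18 and -1.23, lay below both wild-type arrays of its batch and overlapped only through replicate 1.

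**Figure D5:**
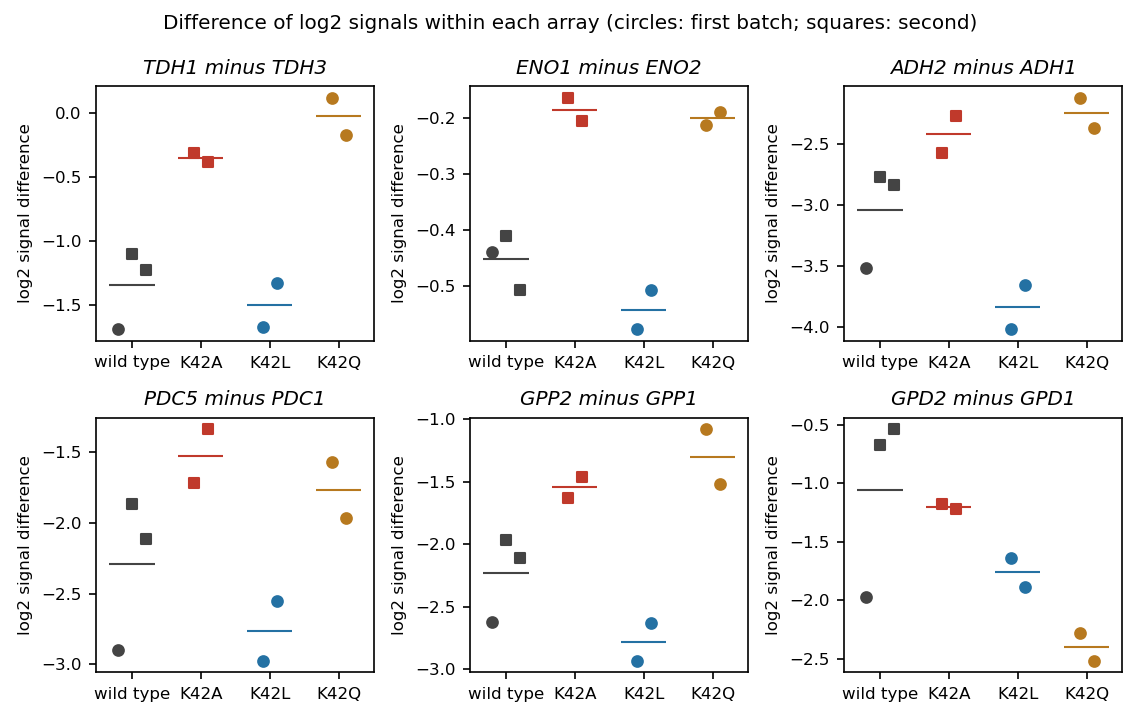
Log2 signal of the first gene named minus that of the second on each array, for 6 pairs of isoforms, 1 point per array with lines at group means, circles for the first batch and squares for the second. Only the shift between groups can be read, not the level. The pairs of TDH, ADH and GPP lie above all wild-type arrays in K42A and K42Q, and those of ADH and GPP lie below them in K42L. There the nearest wild-type array is replicate 1, of the same batch, and 1 K42L array of the GPP pair lies just below it.

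The mutants were then compared directly, so that the wild-type arrays entered the error alone. K42L and K42Q share a batch. Of the 34 members 1 was higher in K42L and 9 were lower, or 2.94 and 26.5 percent, beside 14.8 and 16.7 percent of all genes tested (31.5 in either direction). The differences of K42L from K42Q were largest for ADH2, at -1.53 ± 0.14 log2 (adjusted p = 8.99e-05), TDH1, at -1.41 ± 0.08 (adjusted p = 3.13e-06), and GPP2, at -1.31 ± 0.10 (adjusted p = 2.84e-05). ALD4 differed by -1.20 ± 0.25, PDC6 by -1.18 ± 0.22, ALD2 by -1.05 ± 0.14 and PDC5 by -0.95 ± 0.18. PFK26 and PYK2, at -0.77 ± 0.14 and -0.71 ± 0.08, were lower in K42L as well. The gene higher in K42L was PFK27, at 0.44 ± 0.07 (adjusted p = 0.00242). All 9 lower calls passed in each alternative and with each array left out.

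ALD4 and PDC6, which were not called against wild-type, were thus called between these strains. Their adjusted p values were 0.00686 and 0.00405. For both, the 2 K42L arrays and the 2 K42Q arrays lay on opposite sides, and the wild-type arrays of ALD4 filled the gap between them, while those of PDC6 reached into the K42Q range.

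K42A and K42Q lie in different batches. Of the members 0 were higher in K42A and 4 lower, or 11.8 percent, beside 9.96 and 8.15 percent of all genes (18.1 in either direction). At an unadjusted p under 0.05 limma gave 1 higher and 12 lower. GPP2 differed by -0.64 ± 0.10 log2 (adjusted p = 0.0059), TDH1 by -0.63 ± 0.08 (adjusted p = 0.00254), ALD2 by -0.56 ± 0.14 (adjusted p = 0.0276) and PYK2 by -0.55 ± 0.08 (adjusted p = 0.00432). The calls of GPP2, TDH1 and PYK2 held in every alternative and with each array left out, and that of ALD2 was lost in 2 alternatives and without 3 of the 4 arrays. For PFK26, PDC5 and ADH2, higher in both mutants, the intervals of the difference were -0.26 to 0.38, -0.49 to 0.30 and -0.70 to -0.05, and none was called, which does not show that they responded alike. With the batch as a block PFK26, at 0.50, and ADH2, at -0.75, were called.

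K42A and K42L also lie in different batches. Of the members 9 were higher in K42A and 7 lower, or 26.5 and 20.6 percent, beside 22.1 and 21.9 percent of all genes (44 in either direction). The higher ones were ALD4, at 1.37 ± 0.25 log2 (adjusted p = 0.0029), ADH2, at 1.15 ± 0.14, PDC6, at 0.98 ± 0.22, PDC5, at 0.85 ± 0.18, PFK26, at 0.84 ± 0.14, TDH1, at 0.78 ± 0.08, GPP2, at 0.67 ± 0.10, ALD2, at 0.50 ± 0.14, and ADH4, at 0.28 ± 0.08. The lower ones were PFK27, at -0.53 ± 0.07 (adjusted p = 0.00073), GPP1, PFK1 and PFK2, and the main isoforms ENO2, TPI1 and GPM1. With the batch as a block ALD4 stood at 0.49, PDC5 at 0.39, PDC6 at 0.34, ALD2 at 0.25, ADH4 at 0.14 and GPP1 at -0.15, and of these ALD4 alone was still called. The 5 main isoforms, PFK1 and PFK2 included, also lost the call there. In that fit 6 members were higher and 2 lower, with PFK26 at 1.28, ADH2 at 0.78, TDH1 at 0.69, GPP2 at 0.50 and PFK27 at -0.51 among them. The 16 calls became 6 without K42A replicate 2, 8 without K42L replicate 1 and 10 without K42A replicate 1. Those called in every alternative and with each array left out were PFK26, PFK27, TDH1, ADH2, ALD4 and GPP2. Among the 100 brightest genes outside the list the median was -0.37, with 63 lower and 1 higher.

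Genes that border these routes were counted in the same fit, from lists written with earlier results known. None of them was called in K42L. Of all genes tested 22.6 percent were higher and 19.7 percent lower in K42A, and 21.4 and 18.2 percent in K42Q. Some lists lay near these shares, with 25 percent each way for pyruvate dehydrogenase and acetyl-CoA, and 23.1 percent each way for the regulators. Of 7 genes of sugar phosphorylation and the remaining glycolytic steps 2 rose and 2 fell in K42A, and 3 rose and 1 fell in K42Q. PGM2, the main phosphoglucomutase, rose by 1.15 ± 0.10 log2 in K42A and 2.22 ± 0.10 in K42Q, and HXK1, a glucose-repressed hexokinase, by 0.89 ± 0.10 and 1.39 ± 0.10. PGM1, the minor phosphoglucomutase, fell by 0.81 ± 0.09 and 0.88 ± 0.09. PGK1, phosphoglycerate kinase and the remaining step of the trunk, differed by -0.29, 0.03 and -0.08 in K42A, K42L and K42Q, none called.

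In gluconeogenesis 1 of 4 genes rose and 1 fell in K42A, and 0 rose and 1 fell in K42Q, without PCK1. PCK1, which makes phosphoenolpyruvate for glucose synthesis, had signals of 53.6, 71.6 and 70.3 in wild-type, under the filter, and passed it only through the K42A arrays, at 213 and 243.5, and the K42Q arrays, at 204.0 and 179.8, so its difference is given without a test. Of 8 genes of pyruvate dehydrogenase and acetyl-CoA 2 rose and 2 fell in both mutants. ACS1, the acetyl-CoA synthetase repressed by glucose, rose by 1.12 ± 0.15 and 0.61 ± 0.15, and ACS2, the copy used on glucose, fell by 0.48 ± 0.08 and 0.35 ± 0.08, calls that spike-in scaling ended.

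Of 6 genes of glycerol use and transport 3 rose and 1 fell in both K42A and K42Q, without GCY1. GUT2, the mitochondrial glycerol phosphate dehydrogenase, rose by 1.09 ± 0.11 and 0.67 ± 0.11 log2. GCY1, a glycerol dehydrogenase, had signals of 86.0, 87.1 and 75.2 in wild-type, with a mean under the filter, and of 253 and 296 in K42A and 328 and 294 in K42Q, also without a test. Of 6 other alcohol and aldehyde reductases 2 rose in K42A and 5 in K42Q, with 0 lower in each. The increases are 33.3 and 83.3 percent of this short list, beside 22.6 and 21.4 percent of all genes. BDH1, a butanediol dehydrogenase, rose by 0.85 ± 0.21 and 1.39 ± 0.21 (0.88 in K42Q within the batch), and GRE3, an aldose reductase, by 0.59 ± 0.08 and 1.45 ± 0.08. BDH1 also lay above all wild-type arrays in K42L, not called, at 351 and 364 against 306, 173 and 186.

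In the pentose phosphate pathway 2 of 9 genes rose and 4 fell in K42A, and 2 rose and 2 fell in K42Q. The minor isoforms GND2 and NQM1 rose, by 1.10 ± 0.12 and 1.28 ± 0.08 log2 in K42A and by 1.86 ± 0.12 and 1.70 ± 0.08 in K42Q, and RKI1, the ribose phosphate isomerase, fell by 0.65 ± 0.07 and 0.66 ± 0.07. Of 13 regulators 3 rose and 3 fell in each of K42A and K42Q. TYE7, an activator of glycolytic genes, fell by 0.86 ± 0.17 in K42A (adjusted p = 0.00442) and 0.55 ± 0.17 in K42Q (adjusted p = 0.0337), the latter -0.87 within the batch and not called under spike-in scaling. RGT1, a repressor of hexose transporter genes, rose by 0.72 ± 0.10 and 0.45 ± 0.10.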

How the data were processed

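RNA of 9 cultures was measured with 1 array each. The deposited values are linear signal intensity values made with GCOS 1.4 and MAS5, per the submitters' processing notes, while the sources used here do not state the scaling target. The labels' protocols describe total RNA by hot phenol and column, and 1 round of T7 amplification. The log2 of the deposited intensity was used, with 126 of 98352 values at 0 set to 0.1. The brightest probe set stood for a gene, genes under the 25th percentile (a signal of 87.0) were left out, and limma 3.58.1 in R 4.3.3 fitted 1 mean per group over 9 arrays with an intensity trend. Adjustment ran over 4087 genes. The labels state 2 biological replicates per mutant. The members and lists were chosen with earlier results of these data known. The text names every member, signals per array for called members whose arrays do not overlap, and at most 3 called genes of each other list. Names and neighbours come from the RefSeq table of a yeast assembly. Of the 38 members 36 matched a probe set. The test was tried on simulated data. Batches were read from background probe sets, since the labels name none. The main fit did not pair arrays by replicate number. Same-number correlations were -0.30 to 0.18, but with 2 arrays per mutant they cannot show whether the numbers pair arrays.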

Additional observations from a re-analysis of the deposited data

How the results depend on the processing

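The total of members called is given for each alternative that moved it by over 1.5 times. Calls over all 4087 genes moved too in some of these. With array weights 1003 genes were higher and 925 lower in K42L, beside 13 and 14 in the main fit. Within the batch 1067 were higher and 1179 lower in K42A, beside 925 and 807. Under cyclic loess in K42Q 800 were higher and 732 lower, fewer than the 873 and 745 of the main fit. In K42A against wild-type, 11 calls became 7 with the compared groups alone and 20 within the batch. In K42L, 2 calls became 1 under quantile scaling, cyclic loess and the batch as a block, 0 under spike-in scaling, 16 added before the logarithm, no intensity trend, the replicate block and the compared groups alone, and 17 with array weights. In K42Q, 11 became 17 under cyclic loess and the batch block and 18 with array weights. Between K42A and K42L, 16 became 8 with the batch block and 25 with the compared groups alone. Between K42A and K42Q, 4 became 9 under quantile scaling and the batch block, 7 under loess, 17 with array weights and 18 with the groups alone. Between K42L and K42Q, 10 became 17 with array weights and 16 with the batch block, the groups alone and within the batch. Where K42A meets K42L or K42Q no value within the batch exists. Leaving out each array gave 4 to 16 calls in K42A, 0 to 13 in K42L, 7 to 17 in K42Q, 6 to 11 for K42A against K42L, 3 to 4 for K42A against K42Q, and 10 throughout for K42L against K42Q. The lowest count in K42A came without K42A replicate 2 and the highest without wild-type replicate 2. The 13 in K42L and the 17 in K42Q came without wild-type replicate 1, the 7 without K42Q replicate 1, and the 6 without K42A replicate 2.

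With the replicate number as a block, 6 members were higher and 5 lower in K42A, 7 and 3 in K42Q, and 0 in K42L, where both calls were lost. Calls kept in every alternative and with every array left out were 3 of 11 in K42A, 0 of 2 in K42L, 6 of 11 in K42Q, 6 of 16, 3 of 4 and 9 of 10 in the comparisons between mutants. Over all members, alternatives and left-out arrays, the sign of a change turned in 315 of 3874 values, and in 301 of these it was called under neither setting. Those turns include PGI1, FBA1, TPI1 and GPD1 in K42L and K42Q and GPD2 in K42L within the batch. In the other 14 the change was called under 1 of the 2 settings, the alternative in all but those of TPI1 and GPM1 between K42A and K42L. Against wild-type these 14 include ENO1 in K42A, 0.27 under quantile scaling and 0.26 under loess, and GPM1 in K42Q, 0.11 under loess. Between K42A and K42L, ENO1 became 0.32, 0.29 and 0.34 under quantile scaling, loess and the batch block, TPI1 0.0022 under loess, GPM1 0.0043 and ADH1 0.10 under quantile scaling, and GPD2 -0.66 with the batch block. Between K42A and K42Q, ALD4 became -0.71 with the batch block. Between K42L and K42Q, TPI1 became -0.14 under loess, and ENO2 -0.13 under quantile scaling and -0.17 under loess. The cause of these moves was not tested. With 2 arrays per mutant, small changes are not resolved.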
